A study of Mus musculus with 6 samples.

Results

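The genes described here encode the degradation machinery of the lysosome and of autophagy, in mature adipocytes (AC) and in dedifferentiated fat (DFAT) cells of the mouse. They were taken by their annotated symbols, as the cathepsins (Cts and 1 letter), the subunits of the vacuolar proton pump (symbols that begin with Atp6v), the lysosome-associated membrane proteins (Lamp and a digit) and the core autophagy genes (Atg and a digit). The rule used no measured value. It found 119 of the 45037 probe sets tested, which stand for 59 of 18193 genes: 18 cathepsins in 32 probe sets, 20 pump subunits in 43, 3 Lamp genes in 6 and 18 Atg genes in 38.

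RNA was measured on Affymetrix GeneChip Mouse Genome arrays, 3 for each group. The AC arrays held primary mature adipocytes isolated from mouse fat tissue, with strain, age, treatment and fat depot not given in the sources used here. DFAT was a preadipocyte cell line, which ceiling culture of mature adipocytes from GFP transgenic mice had yielded, and it was harvested at semiconfluence. Ceiling culture lets buoyant, fat-filled adipocytes attach to the upper wall of a flask, where they lose their lipid and begin to divide. The comparison addresses which genes changed level when adipocytes dedifferentiate. It sets cells taken from tissue against a dividing line, so that dedifferentiation, culture and growth cannot be told apart, and the GFP transgene is not stated for AC.

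As background, the lysosome breaks down proteins, lipids and sugars that reach it by endocytosis or in autophagosomes, membrane sacs that enclose cytoplasm and then fuse with it. Most cathepsins are proteases of the lysosome and work best in its acid interior. The V-ATPase provides this acidity by splitting ATP in its V1 sector and passing protons through its V0 sector. The Atg proteins build the autophagosome, and in fat tissue autophagy is known for its part in adipocyte differentiation and in the turnover of mitochondria and lipid.

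All values are on the log2 scale after RMA, the authors' normalization, and differences are DFAT minus AC. A level could be compared between arrays but not between probe sets. The background level of an array, taken as the 95th percentile over 112 probe sets for genes of tissues foreign to fat, lay between 5.67 and 6.12. It was 5.85 to 6.12 on the AC arrays and 5.67 to 5.82 on the DFAT arrays. Of the 81 genes behind it, 13 were called lower and 2 higher in DFAT cells (-3.63 to 1.65), so not all of them were silent. AC replicate 1 stood apart, since its values correlated with those of the other AC arrays at 0.971 and 0.969, where the pair of them reached 0.992. On that array, 18 macrophage markers had a mean of 6.17, against 7.90 and 8.01 on the other AC arrays and 4.33 to 4.40 on the DFAT arrays, and 15 of them were lower in DFAT cells. The mean of 18 endothelial markers was 9.45 on AC replicate 1, 7.71 and 7.65 on the others and 4.43 to 4.46 on the DFAT arrays, with all 18 lower. That of 14 epithelial and mammary markers was 8.81, 8.24 and 8.23 in AC and 4.39 to 4.56 in DFAT cells. Fibroblast markers went mostly the other way, with 9 of 12 higher and 2 lower in DFAT cells (median 2.69). Their mean was 9.33, 9.78 and 9.74 in AC and 11.16 to 11.21 in DFAT cells. White adipocyte markers set the groups apart as labelled, since all 14 measured were lower in DFAT cells, by a median of -7.32. At the background level were 2 of the macrophage, 0 of the endothelial and 2 of the epithelial markers in AC, and 15, 13 and 12 in DFAT cells. The part of such other cells in the differences below was not tested, and in bulk RNA fewer cells of a type and less RNA per cell cannot be told apart.

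Of the 59 genes, 25 (42.4%) were lower and 5 (8.47%) were higher in DFAT cells (limma, with the adjusted p under 0.05), against 23.8% lower and 22.6% higher among all genes. Of the 119 probe sets, 40 were lower and 10 higher, against 18.1% and 20.3% of all probe sets. The median difference of the genes was -0.34, and that of all genes -0.10. Among the 18 cathepsins 11 fell and 1 rose, among the 20 pump subunits 6 fell and 2 rose, and among the 18 Atg genes 8 fell and 2 rose, while the 3 Lamp genes did not pass the test. A difference of at least 4-fold between the group means was seen in 6 genes lower (all genes, 6.66%) and 2 higher (all genes, 4.78%), none of them an Atg or Lamp gene. Without AC replicate 1 these became 7 lower and 1 higher, since Atp6v1c1 was then under 4-fold. Of the 59 genes, 12 never exceeded the background level, of which 4 were called. Among the 47 others 21 were lower and 5 higher, where 29.6% and 34.9% of the like 11242 of all genes were. Of these 47, 6 were at background on all DFAT arrays and 2 on all AC arrays, so they were kept through 1 group only. Those 6 were all called lower and those 2 had no call, so these counts are not independent of the filter. Among the 11242, 1369 and 853 were kept in this way.

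The split depended on the scaling. When arrays were centred on the 18 hybridization control probe sets, 11 members were lower and 7 higher (38.9% of the calls were higher, against 16.7% with the authors' scaling), and the median of all genes became 0.36. Centring on 12 reference genes gave 51 lower and 2 higher (3.8%), with a median of all genes of -0.74, but of these genes themselves 8 were called higher and 2 lower in DFAT cells, with a median of 0.56. Such a centring shifts all genes alike, and of all genes it left 11% lower and 28.1% higher with the hybridization controls, and 68.2% lower and 12.4% higher with the reference genes. Relative to the median of all genes, the members had a median of -0.24, the cathepsins of -0.81, the pump subunits of -0.22 and the Atg genes of -0.17. With values under the background level raised to it, these became 0.0, -0.25, 0.0 and -0.09. Without AC replicate 3 that of the Atg genes was -0.02.

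The cathepsins had the largest differences. Their median was -0.91, and 8 to 16 of the 18 genes were lower under the 3 centrings tried, where 11% to 68.2% of all genes were. Among the 10 cysteine cathepsins outside the placental cluster, 6 (60%) fell and 1 (10%) rose, against 23.8% and 22.6% of all genes. Cathepsin C, the dipeptidyl peptidase that activates the serine proteases of leukocyte granules, had values of 8.89, 9.70 and 9.67 in AC against 2.74, 3.31 and 3.89 in DFAT cells. All DFAT arrays lay under the background level, so Ctsc was at least 12.7-fold lower (difference -6.11, adjusted p = 3.55e-06). Both other probe sets of Ctsc lay under the background level on all 6 arrays, and their differences were -2.34, which passed the test, and -0.66, which did not.

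Cathepsin S, the protease of antigen-presenting cells that trims the invariant chain of MHC class II, had values of 7.17, 10.29 and 9.50 in AC against 3.05, 3.01 and 3.11 in DFAT cells. It was at least 9.37-fold lower (-5.93, adjusted p = 0.000252), with the DFAT arrays at background and AC replicate 1 far under the other AC arrays. The gene of that invariant chain, Cd74, had the same order in AC, with 7.51, 10.07 and 10.12 against 4.99, 4.91 and 4.86 in DFAT cells (-4.31, adjusted p = 0.000927). The macrophage markers were also lowest on AC replicate 1 for 17 of 18 genes, and their part in the Ctss difference was not tested. Without that array the difference of Ctss was -6.84.

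For cathepsin O, a papain-type cathepsin of wide expression, AC had 10.60, 10.60 and 10.39 and DFAT cells 6.53, 6.13 and 6.12. Ctso was 19.3-fold lower (-4.27, 95% interval -4.65 to -3.90, adjusted p = 5.97e-07), and no AC array stood apart. The values of cathepsin F, another papain-type enzyme, were 8.68, 9.12 and 9.19 in AC against 4.87, 4.99 and 4.67 in DFAT cells. Ctsf was at background on the DFAT arrays and at least 9.45-fold lower (-4.15, adjusted p = 1.04e-06), though a second, dim probe set differed by 0.12 and did not pass the test. AC replicate 1 differed from the mean of the other AC arrays by 0.10 for Ctso and by -0.47 for Ctsf. The medians of that measure were -1.94 for the macrophage, 1.77 for the endothelial and 0.76 for the epithelial and mammary markers. The part of such cells in the differences of Ctso and Ctsf was not tested.

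Cathepsin B, among the most abundant lysosomal proteases, had 13.07, 13.46 and 13.33 in AC against 11.66, 11.70 and 11.68 in DFAT cells. It was lower by a difference of -1.61 (95% interval -1.94 to -1.27, adjusted p = 6.23e-05), and all 5 of its probe sets were lower, by -1.16 to -2.97. Cathepsin D, the main aspartic protease, had 12.02, 12.41 and 12.32 in AC against 11.03, 11.16 and 11.18 in DFAT cells. The groups did not overlap, and the difference was -1.13 (adjusted p = 0.000532), although the call was lost with centring on the hybridization controls. Ctsz, a carboxypeptidase, was lower by -0.69 in its leading probe set (adjusted p = 0.00817), and both others were lower as well, but its call was lost with the same centring. Ctsa, the protective protein of the galactosidase and sialidase complex, differed by -0.45 (adjusted p = 0.0306), a call that 9 of the alternative settings did not keep, with a difference of 0.01 after centring on the hybridization controls.

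Cathepsin H was the one cathepsin called higher in DFAT cells. This aminopeptidase had 8.33, 8.69 and 9.10 in AC against 11.29, 11.28 and 11.42 in DFAT cells. It was 6.16-fold higher (2.62, 95% interval 2.16 to 3.09, adjusted p = 2.51e-05), its second probe set was higher by 2.95, and without AC replicate 1 the difference was 2.44. Every DFAT array lay above every AC array by over 2 log2 units.

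The probe sets of cathepsin E, an aspartic protease of endosomes, went opposite ways. The one with the higher mean had 7.35, 6.12 and 6.10 in AC against 4.71, 5.19 and 5.30 in DFAT cells (-1.46, adjusted p = 0.0109). The other, of the kind that can also bind related transcripts, had 4.25, 4.24 and 4.25 in AC against 7.10, 7.36 and 7.19 in DFAT cells (2.97, adjusted p = 1.19e-06). No direction can thus be given for Ctse, which the counts above hold as lower. Without DFAT replicate 1 the first of these calls was lost (-1.28, adjusted p = 0.0517).

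Ctsl and Ctsk did not pass the test in the probe sets that stood for them. For cathepsin L, an abundant endopeptidase, AC had 12.29, 12.95 and 12.99 and DFAT cells 12.25, 12.27 and 12.27 (-0.48, adjusted p = 0.0965). AC replicate 1 sat beside the DFAT arrays, and without it the difference was -0.71 (adjusted p = 0.00106). A second probe set of Ctsl, near the background level in AC and under it in DFAT cells, was called lower (-1.18, adjusted p = 0.000882). For cathepsin K, the collagen-degrading enzyme of osteoclasts and fibroblasts, the values were 7.19, 8.63 and 9.05 in AC against 8.84, 8.71 and 8.69 in DFAT cells (0.46, adjusted p = 0.437), with an interval of -0.52 to 1.43. Of the cathepsins known from placenta, Ctsj (4.05, 5.11 and 5.23 in AC against 2.92, 2.73 and 2.84) and Ctsr were called lower but lay under the background level on all arrays. So did Ctsm, Ctsq and, of the leukocyte cathepsins, Ctsg, none of which passed the test, and Ctsw (0.17) did not pass it either.

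**Figure D1:**
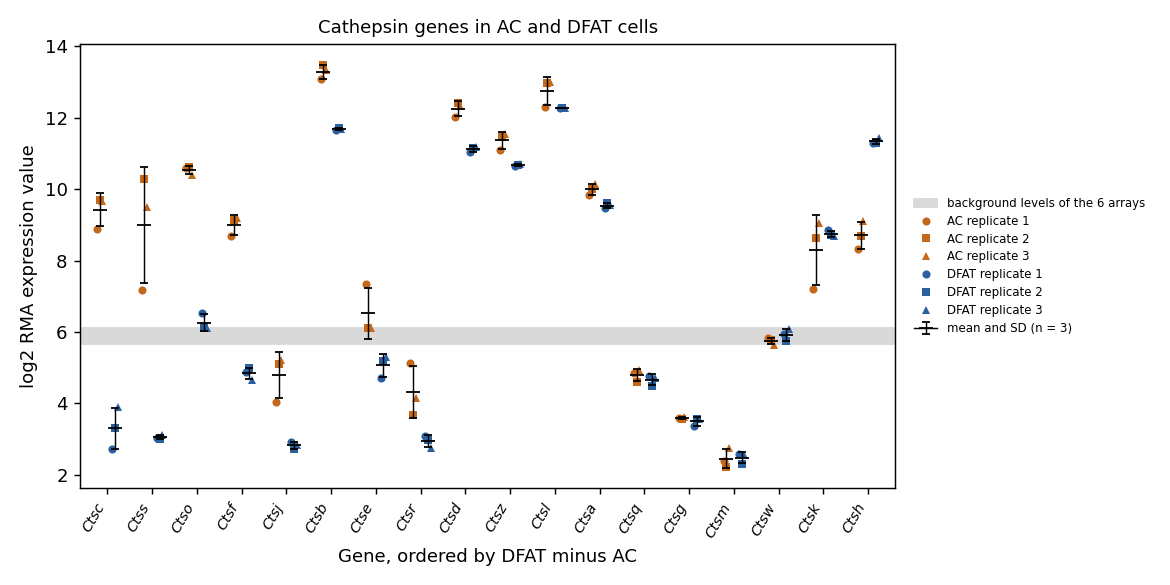
Log2 RMA values (vertical axis) of the 18 cathepsin genes, ordered by the DFAT minus AC difference, with 1 point per array (AC orange, DFAT blue), bars for mean and SD (n = 3) and a grey band for the background levels. Ctsc, Ctss and Ctsf reach the background only in DFAT cells, Ctsh stands higher there, and for Ctss and Ctsk the circle of AC replicate 1 lies far under the other AC points.

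Of the subunits of the V-ATPase, 12 of 20 did not pass the test, and the share called lower (30%) was near that of all genes (23.8%). The median of -0.32 became 0.14 with centring on the hybridization controls, and the number lower moved from 6 to 2 there, to 17 with centring on the reference genes and to 11 without AC replicate 1. Of all genes, 11%, 68.2% and 29.4% were lower under these settings, in that order. The largest decreases were in isoforms of restricted expression. Atp6v0e2, an isoform of the small e subunit of V0 best known from brain, had 7.65, 8.95 and 8.08 in AC against 4.62, 3.75 and 4.10 in DFAT cells. It was at background on all DFAT arrays and at least 5.53-fold lower (-4.07, adjusted p = 4.93e-05). Its ubiquitous counterpart Atp6v0e had 11.25, 11.40 and 11.62 in AC against 11.30, 11.26 and 11.26 in DFAT cells, which overlapped (-0.15, 95% interval -0.47 to 0.18, adjusted p = 0.452).

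The B subunit, which binds nucleotide in V1, likewise has a restricted and a ubiquitous isoform, whose difference from each other was not tested. Atp6v1b1, the isoform of kidney and other acid-secreting epithelia, had 8.16, 7.57 and 7.48 in AC against 3.62, 3.68 and 3.96 in DFAT cells, at least 3.94-fold lower (-3.98, adjusted p = 2.97e-06). It was highest on AC replicate 1, on which the means of the epithelial and of the endothelial markers were highest as well. The part of such cells in this difference was not tested. Without that array the difference was -3.77. The ubiquitous Atp6v1b2 had 8.63, 9.45 and 9.48 in AC against 8.80, 8.86 and 8.90 in DFAT cells (-0.34, adjusted p = 0.299, and -0.61 with 0.00258 without AC replicate 1). Other isoforms known from specialized tissues, Atp6v0d2, Atp6v0a4, Atp6v1c2, Atp6v1e2 and Atp6v1g2, were at the background level in both groups. Of these Atp6v0d2 (3.63, 4.78 and 5.01 in AC against 3.38, 3.18 and 3.27, -1.20) and Atp6v1e2 (4.80, 4.39 and 4.49 against 4.08, 4.14 and 3.95, -0.51) were called lower.

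The stalk subunits E and D of V1 also fell. Atp6v1e1 had 10.92, 11.36 and 11.66 in AC against 10.44, 10.47 and 10.47 in DFAT cells (-0.86, adjusted p = 0.00938), while its 3 other, dimmer probe sets did not pass the test. Atp6v1d, the central shaft, had 9.58, 10.14 and 9.96 in AC against 9.21, 9.19 and 9.19 in DFAT cells (-0.70, adjusted p = 0.0118), and all 3 of its probe sets were lower. In both genes AC replicate 1 was the AC array nearest to DFAT cells, and both calls were lost with centring on the hybridization controls.

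The subunits called higher were Atp6v1c1 and Atp6v0a2. Subunit C, a regulated link between V1 and V0, had 7.44, 9.62 and 9.50 in AC against 10.93, 10.86 and 10.93 in DFAT cells. The difference of Atp6v1c1 was 2.05 (95% interval 0.85 to 3.26, adjusted p = 0.0152), but AC replicate 1 lay -2.12 from the mean of AC replicates 2 and 3, and its omission left a difference of 1.35 (adjusted p = 3.89e-05). Without DFAT replicate 1 the call was lost (2.04, adjusted p = 0.0556). The other probe sets of the gene had smaller differences, 0.67 (adjusted p = 0.012) and 0.53 (adjusted p = 0.0545). Atp6v0a2, the a subunit of Golgi and endosome pumps, had 7.73, 7.64 and 7.21 in AC against 7.94, 8.17 and 8.11 in DFAT cells (0.55, adjusted p = 0.0371). This small increase lost its call under 8 settings and turned to -0.09 with centring on the reference genes. Of its other probe sets, 1 was higher by 0.90 (adjusted p = 0.00864), from background values in AC. The remaining one differed by 0.27 and did not pass the test (adjusted p = 0.29).

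The remaining core subunits had differences of -0.57 to 0.37, from Atp6v1h to Atp6v0b, and did not pass the test in the probe sets that stood for them. AC replicate 1 was the lowest AC array for 15 of the 20 subunits, by a median of -0.54, against 48% of all genes and a median of -0.09. For Atp6v1h the AC values were 9.79, 10.71 and 10.59 and the DFAT values 9.76, 9.83 and 9.77. Its difference of -0.57 did not pass the test (adjusted p = 0.0967) and became -0.86 (adjusted p = 0.000465) without AC replicate 1. A dimmer probe set of Atp6v1h was called lower (-0.73, adjusted p = 0.0324), though its groups overlapped and all DFAT arrays were at background. Atp6v0a1, Atp6v0d1, Atp6v1b2 and Atp6v1f differed by -0.27 to -0.40 and did not pass either, and were also called lower without that array. Atp6v1a, the catalytic subunit, differed by 0.07 (95% interval -0.50 to 0.64, adjusted p = 0.849).

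**Figure D2:**
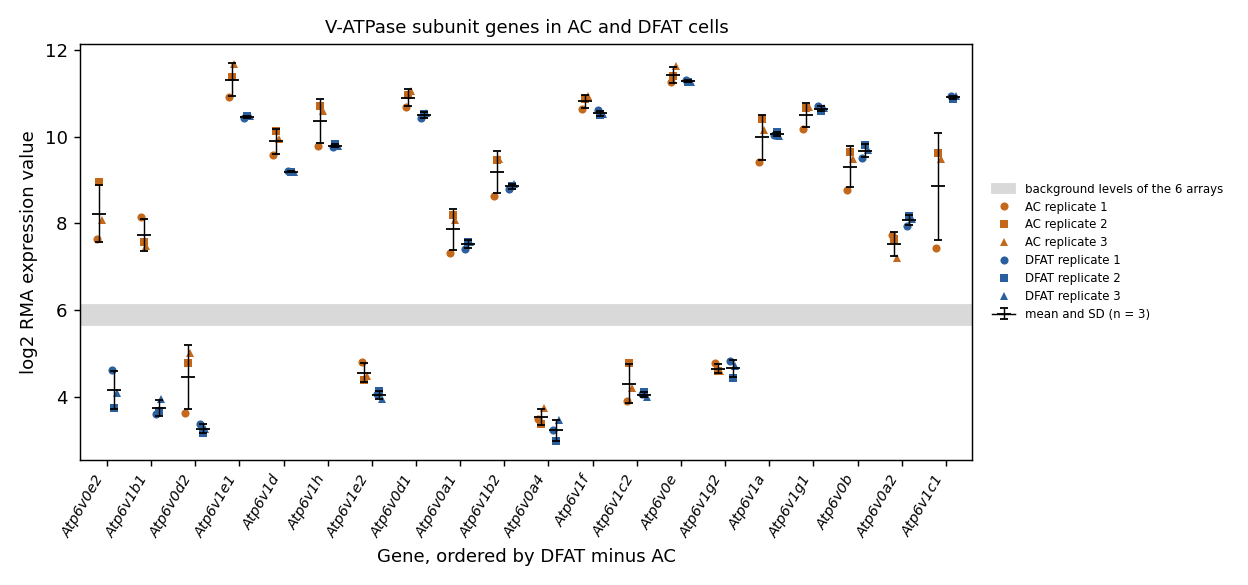
Log2 RMA values (vertical axis) of the 20 V-ATPase subunit genes, ordered by the DFAT minus AC difference, with 1 point per array, bars for mean and SD (n = 3) and a grey band for the background levels. Atp6v0e2 and Atp6v1b1 fall under the band in DFAT cells, most core subunits overlap or nearly so, and the circle of AC replicate 1 is the lowest AC point in 15 genes.

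No Lamp gene passed the test in limma, and 0 of the 3 had an unadjusted p under 0.05. Lamp1, a heavily glycosylated protein of the lysosomal membrane, had 12.11, 11.96 and 11.88 in AC against 12.10, 12.25 and 12.20 in DFAT cells (0.20, 95% interval -0.10 to 0.50, adjusted p = 0.275). The groups overlapped, and the interval leaves out a decrease of the size seen for Ctsb and Ctsd, though the difference was -0.44 with centring on the reference genes. Lamp2, which also takes part in chaperone-mediated autophagy, had 11.11, 11.81 and 11.61 in AC against 11.50, 11.33 and 11.42 in DFAT cells (-0.09, adjusted p = 0.748), and its 4 probe sets differed by -0.47 to -0.09. Lamp5 was at the background level in both groups.

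Among the 18 Atg genes, 8 (44.4%) were lower, with differences of -1.61 to -0.52, and 2 (11.1%) were higher, by 0.51 and 0.73. Of all genes, 23.8% were lower and 22.6% higher. The median of -0.28 turned to 0.19 with centring on the hybridization controls, where 1 gene was lower (Atg10) and 3 were higher, so that the other 7 lower calls were lost. With that centring 11% of all genes were lower and 28.1% higher. Of the 7 genes of the conjugation systems, 4 fell (57.1%). Atg10, the E2-like enzyme that attaches Atg12 to Atg5, had 7.62, 8.26 and 7.74 in AC against 6.47, 6.14 and 6.18 in DFAT cells (-1.61, adjusted p = 0.000363). It was the only Atg gene to differ by more than 1 log2 unit. Atg12, the ubiquitin-like protein itself, had 8.52, 9.07 and 8.91 in AC against 7.86, 7.92 and 7.84 in DFAT cells (-0.96, adjusted p = 0.0024).

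Atg16l1, the partner that places the Atg12 conjugate on the membrane, had 8.36, 7.88 and 8.26 in AC against 7.41, 7.42 and 7.53 in DFAT cells (-0.72, adjusted p = 0.0083). Atg7, the E1-like enzyme of both conjugation systems, had 7.62, 8.12 and 8.17 in AC against 7.23, 7.31 and 7.41 in DFAT cells (-0.65, adjusted p = 0.0195). In neither gene did the groups overlap, and 3 of the 4 probe sets of Atg7 were lower. Atg5, the target of Atg12, differed the other way, with 8.32, 8.55 and 8.36 in AC against 8.74, 8.81 and 8.68 in DFAT cells. It did not pass the test (0.33, adjusted p = 0.0836), while 1 of its 3 probe sets did, at 0.60. Atg3, the E2-like enzyme for LC3, differed by -0.19 (adjusted p = 0.452).

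Of the 4 Atg4 proteases, which process and recycle LC3, only Atg4a passed the test, with 8.40, 8.33 and 8.42 in AC against 7.76, 7.59 and 7.56 in DFAT cells (-0.75, adjusted p = 0.00217). The paired lipid transfer proteins Atg2a and Atg2b differed in opposite directions. Atg2a had 7.86, 7.55 and 7.62 in AC against 6.98, 7.10 and 7.02 in DFAT cells (-0.64, adjusted p = 0.00696). Atg2b, near the background level in AC, had 6.23, 6.15 and 5.98 there and 6.73, 6.92 and 6.89 in DFAT cells (0.73, adjusted p = 0.00332), and neither other probe set of it passed. With centring on the hybridization controls Atg2a lost its call, and with centring on the reference genes Atg2b did.

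Of the complexes that start the autophagosome, Atg13 of the ULK1 kinase complex (-0.52, adjusted p = 0.0124) and Atg14 of the PI3-kinase complex (-0.57, adjusted p = 0.033) were lower. The call of Atg13 was lost under 4 settings and that of Atg14 under 6, and neither other probe set of Atg13 passed the test. Atg101, which stabilizes Atg13, had 7.17, 6.65 and 6.87 in AC against 7.35, 7.50 and 7.35 in DFAT cells (0.51, adjusted p = 0.0421). Its call was lost under 8 settings, and its difference was -0.13 with centring on the reference genes. The scramblase Atg9a (0.08), Atg9b, Atg16l2, Atg4b, Atg4c and Atg4d differed by -0.36 to 0.15, all without a call.

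**Figure D3:**
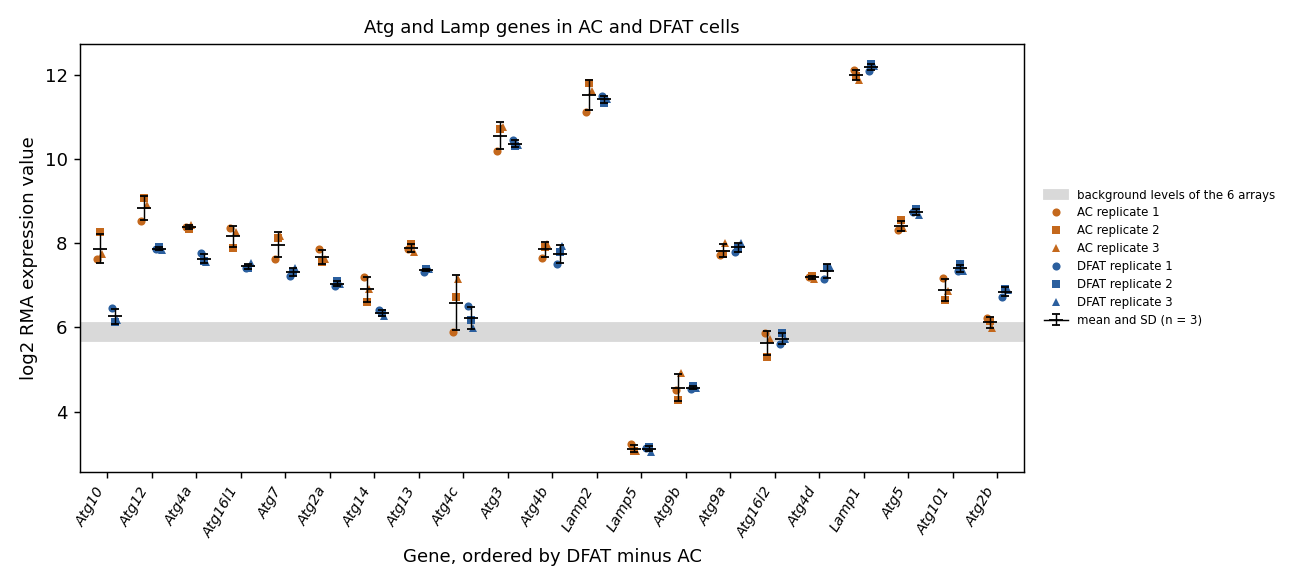
Log2 RMA values (vertical axis) of the 18 Atg and 3 Lamp genes, ordered by the DFAT minus AC difference, with 1 point per array, bars for mean and SD (n = 3) and a grey band for the background levels. Atg10 has the widest gap between the groups, and the points of Lamp1 and Lamp2 overlap.

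Autophagy genes under other names gave 15 lower (50%) and 1 higher (3.33%) of 30 measured (median -0.37), against 23.8% and 22.6% of all genes. With centring on the hybridization controls 2 were lower and 4 higher (median 0.09), and with centring on the reference genes 23 and 0. All 5 genes of the LC3 and GABARAP proteins, the Atg8 homologues that coat the autophagosome, were lower, by -0.45 (Gabarapl2) to -1.14 (Gabarapl1), though with the first of these centrings they differed by -0.68 to 0.01 and their calls were lost. Map1lc3b had 12.08, 12.24 and 12.19 in AC against 11.49, 11.41 and 11.39 in DFAT cells (-0.74, adjusted p = 0.00202). The cargo receptor Sqstm1 had 11.97, 12.50 and 12.44 in AC against 11.21, 11.40 and 11.34 in DFAT cells (-0.98, adjusted p = 0.00255). The receptor of mitochondria Bnip3, also a hypoxia-responsive gene, had the largest decrease of the list, with 12.90, 13.02 and 12.84 against 10.41, 10.52 and 10.48 (-2.45, adjusted p = 2.86e-06). Kinase genes Ulk1 (-0.48), Ulk2 (-0.79) and Pik3c3 (-0.76) were also lower, though these calls and that of Sqstm1 were lost with centring on the hybridization controls, whereas Becn1 (-0.22, adjusted p = 0.316) did not pass the test, and the fusion protein gene Vamp8 was higher (0.46, but -0.18 with centring on the reference genes).

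Other lysosomal hydrolases and their activators gave 15 lower (42.9%) and 5 higher (14.3%) of 35 (median -0.31), again beside 23.8% and 22.6% of all genes. There were 6 lower and 8 higher (median 0.15) with centring on the hybridization controls, and 28 and 2 with centring on the reference genes. The tartrate-resistant phosphatase Acp5 had 11.89, 12.08 and 12.13 in AC against 4.27, 3.60 and 3.58 in DFAT cells (-8.22, adjusted p = 1.15e-07), where it was at background. Gm2a, the activator of ganglioside breakdown, had 11.55, 11.65 and 11.74 in AC against 7.55, 7.52 and 7.46 in DFAT cells (-4.14, adjusted p = 2.27e-07). Those that rose were the galactosidases Gla (1.31) and Glb1 (1.14), the carboxypeptidase Scpep1 (0.97), the ceramidase Asah1 (0.90) and Hexa (0.56), of which Gla and Glb1 kept their calls with centring on the reference genes, where Hexa turned to -0.08. Of 18 genes of lysosomal membrane proteins, 8 were lower (44.4%), among them Cln3 (-3.01) and the macrophage protein Cd68 (-3.30), and 4 higher (22.2%), among them Tpcn2 (1.18) and Npc1 (0.80, but 0.16 without a call after centring on the reference genes). Those counts were 3 and 4 with the hybridization controls as the centre, and 14 and 1 with the reference genes.

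A broad list of cathepsin regulators and protease inhibitors, not all specific to cathepsins, gave 4 higher and 4 lower of 10. These shares were 40% each (all genes 22.6% and 23.8%). The counts were 5 and 3 after centring on the hybridization controls and 4 and 6 after centring on the reference genes. Called lower were Serping1 (-8.09), Cd74, Cst3 and Cst7 (-0.53), the last at background on all arrays. The even split is thus no result about cathepsin control. Cst6, a cystatin that inhibits cathepsins L and V and legumain, rose from background values of 4.59, 4.32 and 4.24 in AC to 8.17, 8.26 and 7.35 in DFAT cells (3.55, adjusted p = 1.63e-05). Lgmn, the protease legumain that cuts cathepsins into their mature chains, had 6.39, 8.17 and 7.79 in AC against 9.01, 9.09 and 9.08 in DFAT cells (1.61, adjusted p = 0.0147). Cst3, the secreted cystatin C, fell by 1.24 on the log2 scale. A list of 14 accessory subunits, assembly factors and regulators of the V-ATPase gave 4 higher and 4 lower (28.6% each), near the shares of all genes. It gave 6 and 1 after the first of these centrings and 0 and 8 after the second. Among the higher were Atp6ap1 (0.50, but -0.14 with centring on the reference genes) and Atp6ap2 (0.72, but 0.08 without a call there). Oxr1 (0.79) and Tmem199 (0.67), not themselves pump subunits, were higher too, and lost their calls with that centring. Dmxl2, a subunit of the pump's assembly factor, was lower (-1.95). Of 18 sorting genes, 6 were lower (33.3%) and 1 higher (5.56%), with 2 and 3 after centring on the hybridization controls and 12 and 0 after centring on the reference genes. The sorting receptor Sort1, also a component of insulin-responsive vesicles in adipocytes, had 11.44, 11.09 and 11.06 in AC against 6.01, 5.81 and 5.84 in DFAT cells (-5.31, adjusted p = 1.92e-07).

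The MiT/TFE factors switch on lysosomal and autophagy genes and are held in the cytoplasm by mTORC1 at the lysosome. Of 21 such factors and mTORC1 genes, 5 were lower, which is 23.8%, the same share as among all genes, and 0 were higher. The median was -0.12. With centring on the hybridization controls 2 were lower and 1 higher (median 0.34), and with centring on the reference genes 19 and 0. Mitf had 7.42, 8.39 and 7.93 in AC against 4.67, 3.93 and 4.46 in DFAT cells (-3.56, adjusted p = 3.01e-05), which was at background. Tfeb had 6.81, 7.15 and 7.33 in AC against 6.86, 7.20 and 7.20 in DFAT cells, which overlapped (-0.01, adjusted p = 0.971), and Tfe3 differed by 0.25 (adjusted p = 0.178). Lamtor2 (-1.29), Lamtor4 (-1.08) and Mtor (-1.08) were lower, and the last 2 calls were lost with centring on the hybridization controls.

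**Figure D4:**
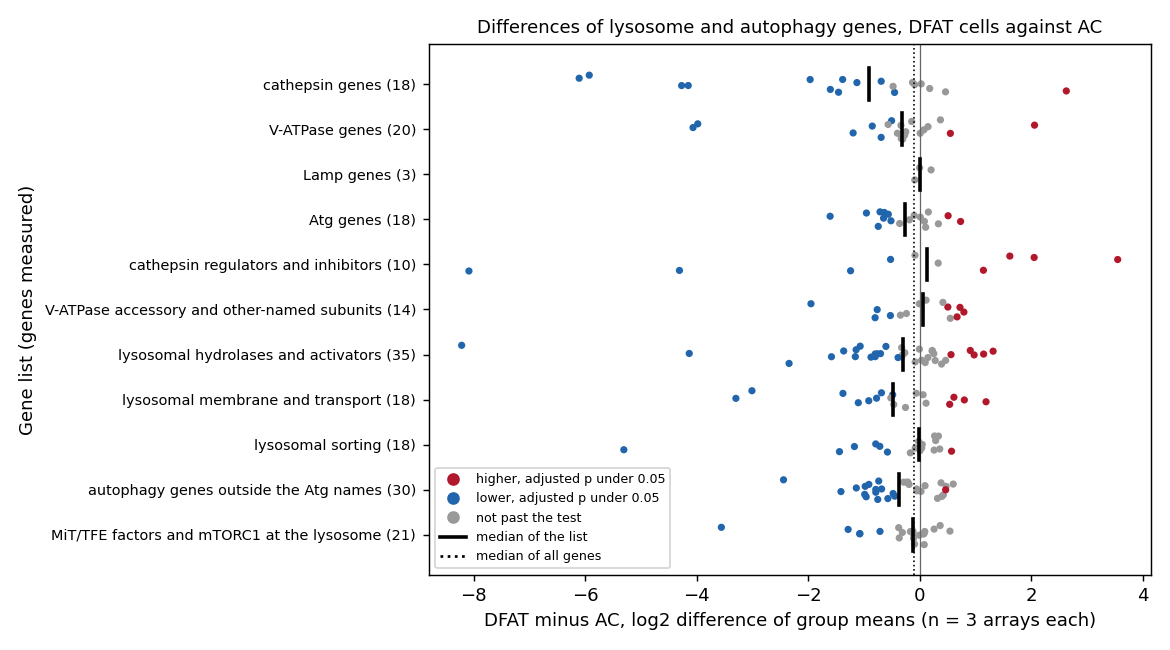
DFAT minus AC differences (horizontal axis, log2 units, n = 3 arrays each) of every gene measured, by family or list, with red for higher, blue for lower, grey for not past the test, thick lines for the medians and a dotted line for the median of all genes (-0.10). The cathepsins spread the widest of the 4 families, from -6.11 to 2.62.

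MiT/TFE proteins bind an E-box motif, CACGTG, in the promoters of many lysosomal genes. It was sought, with the longer TCACGTGA that contains it (both read the same on either strand), in RefSeq windows of GRCm38.p6 from 250 bases before to 50 after each start, which 47 of the 59 genes had. CACGTG was in the window of 13 of these 47 genes (27.7%), against 8.09% of the 27025 genes with a window. Of the 14452 genes that had a probe set as well, as all members do, 10.2% held it. Among genes above the background level in a group, it was in 13 of 36 members (36.1%) and 11.9% of all. TCACGTGA was in 6 members (12.8%), against 1.12% of all genes with a window and 1.63% of those with a probe set as well. Above the background level it was in 16.7% of members and 2.29% of all. Of the genes called lower 5 of 20 held CACGTG, of those called higher 0 of 2, and of those that did not pass the test 8 of 25. A match describes the letters only, and binding was not measured.

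The 120 bases before the start are shown for 4 genes that hold the motif and for Ctss, which fell and holds none in its window, with each CACGTG in capitals. They lie at chr8:13159041-13159160, plus strand (Lamp1), chr7:142387828-142387947, minus strand (Ctsd), chr16:45158709-45158828, plus strand (Atg3), chr4:117887330-117887449, minus strand (Atp6v0b) and chr3:95526666-95526785, plus strand (Ctss), and are read 5′ to 3′ along the gene.
Lamp1: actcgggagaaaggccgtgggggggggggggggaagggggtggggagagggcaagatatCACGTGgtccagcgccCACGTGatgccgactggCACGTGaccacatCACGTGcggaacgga
Ctsd: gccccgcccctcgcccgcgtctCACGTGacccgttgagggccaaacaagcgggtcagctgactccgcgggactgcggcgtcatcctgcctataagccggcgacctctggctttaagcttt
Atg3: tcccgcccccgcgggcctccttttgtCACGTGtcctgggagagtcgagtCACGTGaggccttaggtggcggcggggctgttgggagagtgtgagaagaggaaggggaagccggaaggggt
Atp6v0b: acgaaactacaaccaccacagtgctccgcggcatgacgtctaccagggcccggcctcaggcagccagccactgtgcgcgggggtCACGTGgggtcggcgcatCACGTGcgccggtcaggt
Ctss: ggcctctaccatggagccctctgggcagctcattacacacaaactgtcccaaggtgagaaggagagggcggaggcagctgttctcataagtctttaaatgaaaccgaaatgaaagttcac

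Lamp1 held 4 copies within this stretch, and its level did not pass the test (0.20). Atg3 and Atp6v0b held 2 each and did not pass it either (-0.19 and 0.37). Ctsd, with 1 copy here and 1 farther upstream, was lower (-1.13). Ctss, with none in its window, was at background in DFAT cells.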

How the data were processed

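The log2 values that the authors deposited had been made with RMA, whose version the sources do not state. RMA corrects background, equalizes the distributions of arrays and combines the probes of each probe set. The sources do not say which arrays went into that step, and arrays of HC and RLSC were not used here. Groups and replicate numbers came from the sample labels, and 0 columns remained unmapped. Separate animals or cultures are stated nowhere for the replicates, so the p-values cover only how far these arrays spread, and their number limits the precision.

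Probe sets took their name from the platform annotation where it gave 1 symbol (34945 of 45037, after 64 control probe sets were left out). The 59 member genes were found by Entrez ID in RefSeq (GRCm38.p6), and 1 probe set naming a member and another gene was left out. Where a gene had several probe sets (34 of the 59), the brightest on average stood for it. In 19 of these genes it passed the test, and the others all had the same call in 5, partly lacked one in 13, and went the opposite way in 1 (Ctse). Atp6v0b, Atg5, Lamp2 and Atp6v1e1 rest on probe sets that can bind related transcripts.

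The groups were compared with limma 3.58.1 under R 4.3.3 (lmFit, eBayes, two-sided, no filter, p-values adjusted by Benjamini-Hochberg across the whole table, threshold 0.05), a step tested on simulated data. "At least N-fold" sets the AC mean against the background levels of the DFAT arrays. Values by array were given for up to 6 genes per family and direction with the largest differences among those called without overlap, and others were named as exceptions or by role, some after their values were seen. The members, lists and alternatives were chosen with earlier results of these data known. Same-numbered AC and DFAT arrays did not deviate together (correlations -0.0156, -0.027 and 0.0132), so that numbers were not taken as pairs. Python 3.11.15, numpy 2.4.6, pandas 2.3.3 and matplotlib 3.10.9 were used for tables and figures.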

Additional observations from a re-analysis of the deposited data

How the results depend on the processing

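Of the 932 values of single genes under alternative settings, 744 kept their direction and their side of the threshold, 47 passed the test newly, 71 no longer passed and 70 changed sign, of which 56 passed the test neither before nor after. The scaling moved counts the most. Centring on the hybridization controls gave 17 probe sets higher and 16 lower, 11 genes lower, 2 V-ATPase genes lower, 1 Lamp gene higher (Lamp1) and 1 Atg gene lower, and turned the call of Ctsa to 0.0081. It also turned, all without a call, Atg3 (0.27), Atg4b (0.36), Atg4c (0.10), Lamp2 (0.37), Lamp5 (0.46), Atp6v0a1 (0.12), Atp6v0a4 (0.15), Atp6v0d1 (0.059), Atp6v0e (0.31), Atp6v1b2 (0.13), Atp6v1c2 (0.21), Atp6v1f (0.19), Ctsg (0.37) and Ctsq (0.33). Centring on the reference genes gave 4 probe sets higher and 98 lower, 2 genes higher and 51 lower, 1 V-ATPase gene higher and 17 lower, 3 Lamp genes lower, and 0 Atg genes higher and 15 lower. The differences it turned were, with the calls lost, those of Atg101 (-0.13) and Atp6v0a2 (-0.094), without a call, those of Atg5 (-0.31), Atp6v0b (-0.27) and Ctsk (-0.18), and, newly called lower, those of Atg16l2 (-0.54), Atg4d (-0.49), Atg9a (-0.56), Atg9b (-0.63), Lamp1 (-0.44), Atp6v1a (-0.57), Atp6v1g1 (-0.49), Atp6v1g2 (-0.64), Ctsm (-0.62) and Ctsw (-0.47). Centring on the array median left 5 Atg genes lower and turned Atg4b (0.027), Lamp2 (0.039), Lamp5 (0.12) and Ctsg (0.036), all without a call. Quantile normalization again gave 3 genes higher, of which 1 was a V-ATPase and 1 an Atg gene, and turned, without a call, Atg4d (-0.0013), Atg9a (-0.10), Lamp5 (0.13), Atp6v1a (-0.054), Ctsg (0.055) and Ctsq (0.015). The mean of all probe sets of a gene turned Ctse to a called 0.76, gave 2 cathepsins higher and turned, without a call, Atg3 (0.037), Atg9b (-0.19) and Atp6v1g1 (-0.15). Array weights gave 11 V-ATPase genes lower and turned, without a call, Lamp5 (0.028) and Atp6v1a (-0.16). A floor at the background level turned, likewise, Atg16l2 (-0.18), Atg9b, Atp6v1g2 and Ctsm (-0.22 each) and Ctsw (-0.040).

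With the replicate number as a block, 3 genes were higher and 23 lower, with 1 V-ATPase and 1 Atg gene higher. A rule of at least 4-fold alone gave 4 probe sets higher and 8 lower, 2 genes higher and 6 lower, 4 cathepsins lower, 1 V-ATPase gene higher and 2 lower, and 0 Atg genes in either direction. Leaving out each array in turn gave 6 to 14 probe sets higher, 2 to 5 genes higher and 18 to 33 lower, 0 to 2 V-ATPase genes higher and 4 to 11 lower, and 1 to 2 Atg genes higher and 5 to 10 lower. Without AC replicate 1, 33 genes were lower, of which 11 V-ATPase genes. Without DFAT replicate 1, 18 were lower, of which 5 Atg genes, and 2 were higher, and without AC replicate 2 or 3 or DFAT replicate 2 or 3, 3 were higher. Without DFAT replicate 2, 6 probe sets were higher and 5 Atg genes lower. Leaving out an array in turn also moved some differences across 0, with no call where they turned: Atg16l2 ranged from -0.059 to 0.22, Atg4b from -0.20 to 0.011, Atg9b from -0.14 to 0.18, Lamp2 from -0.29 to 0.056, Lamp5 from -0.032 to 0.046, Atp6v1a from -0.22 to 0.28, Atp6v1g1 from -0.018 to 0.23, Atp6v1g2 from -0.076 to 0.11, Ctsk from -0.090 to 0.84 and Ctsm from -0.093 to 0.17. Calls were lost most often for Ctsa and Atp6v1e2 (9 settings), Atg101 and Atp6v0a2 (8), and Atg7 and Atp6v0d2 (7). The calls of Ctsc, Ctss, Ctso, Ctsf, Ctsb, Ctsh, Atp6v0e2, Atp6v1b1 and Atg10 held under every setting that used the test. Apart from those shown by construction (fewer arrays, another centre), the cause was not tested. Signal near the background limits 12 members, and with another percentile for that level, 90 or 99, it held 12 or 15 members in AC and 17 or 20 in DFAT cells.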
